A study of Mus musculus with 10 samples.

Results

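Basement membrane and integrin genes were compared between 5 Emx2 knockout and 5 wild-type libraries of embryonic mouse cortex. The set holds the protein-coding genes whose symbols name a laminin chain, a type IV collagen chain or an integrin alpha or beta subunit and end in a number. Itga2b, whose symbol ends in a letter, falls outside the set. Itgav, the nidogen genes Nid1 and Nid2, the proteoglycan genes Hspg2 (perlecan) and Agrn (agrin), and Dag1 (dystroglycan) were added to it. It comprised 42 of the 56748 genes counted, which include 21871 protein-coding genes. Of these 42, 37 had enough reads to be tested.

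A basement membrane is a thin sheet of extracellular matrix built from laminins and type IV collagen, which nidogens and heparan sulphate proteoglycans link together. Laminins are trimers of an alpha, a beta and a gamma chain, and type IV collagen molecules are trimers of alpha chains. Cells hold on to the sheet through integrins, heterodimers of an alpha and a beta subunit, and through dystroglycan. In the embryonic cortex the endfeet of radial glia, the dividing cells that span its wall, attach to the basement membrane under the pia, and blood vessels carry a basement membrane of their own.

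All 10 samples were labelled as cortex at stage E12.5, and the series describes the tissue as dorsal telencephalon. The knockout group was labelled Emx2 KO and the control group wild type. The labels give neither the allele, the strain nor the number of embryos in a library. Nothing in them states that replicates came from separate embryos, so the p-values set the genotype difference only against the scatter between these libraries. Part of that scatter may be technical. Replicate numbers were given in accession order and pair nothing across the genotypes.

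Reads of Emx2, the homeobox gene named as knocked out, were counted at 146, 129, 109, 137 and 94.6 CPM (reads scaled to a common total per library, with TMM-scaled totals) in knockout replicates 1 to 5. Wild-type replicates 1 to 5 stood at 207, 179, 175, 182 and 186 CPM. All knockout libraries thus lay below all wild-type libraries, with a log2 fold change of -0.59 ± 0.11 (SE, edgeR adjusted p = 0.00271), but the transcript was not absent. These counts cover the whole gene and do not tell where a deletion lies, and without a stated strand setting they may hold reads of the antisense gene Emx2os. The defining cortical genes Emx1 (153 CPM in knockout, 109 in wild type), Pax6 (289 and 228) and Tbr1 (431 and 270) were abundant in both genotypes.

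Libraries held 9720840 to 35674113 counts. They fell into 2 size classes, 5 large libraries of at least 24856930 counts and 5 small ones of at most 14700549, and the sample titles carry 3 codes whose meaning the labels do not give. In every code the genotypes were of opposite size class. A library was taken as female type where Xist reads exceeded the summed reads of the Y-linked genes Ddx3y, Uty, Kdm5d and Eif2s3y. By this rule (Xist type), 1 library was of female type in the knockout and 3 were in wild type. The call rule throughout was an adjusted p under 0.05 in edgeR's quasi-likelihood F test, adjusted over all 18163 genes tested.

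Most of the set did not pass the test between genotypes, and the members that did were mainly lower in the knockout. The laminin alpha chain genes Lama5 and Lama2, the collagen chain genes Col4a5 and Col4a6, and the integrin genes Itga6, Itga1, Itga8, Itgb1 and Itgb8 fell. Dag1 rose. Col4a5 and Col4a6 lie on chromosome X, Lama5, Itga6 and Itga8 on chromosome 2, and Lama2, Itga1, Itgb1, Itgb8 and Dag1 on chromosomes 10, 13, 8, 12 and 9. The changes were small, from 1.14-fold for Itgb1 to 1.54-fold for Itga8. These 10 members made 27.0% of the 37 tested, 9 lower and 1 higher, against 22.2% of all genes tested and 26.3% of protein-coding genes tested. The share called in either direction is therefore near the background. By direction, 2.7% of the members tested were called higher and 24.3% lower. Of all genes 12.9% were called higher and 9.33% lower, and among protein-coding genes the shares were 15.7% and 10.6%. The median log2 fold change was -0.13 over the 37 members and -0.01 over all genes tested, with 24 members below 0 and 13 above. The members' median was -0.06 in the large libraries alone and -0.02 with Xist type as a term, a fit added after the data were seen, in which the median of all genes was -0.01.

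The 5 knockout libraries did not overlap with the 5 wild-type libraries for 9 members, of which 8 were lower and 1 was higher. Such separation was seen in 16.7% of all genes tested, 7.06% lower and 9.63% higher. Among protein-coding genes it was seen in 19.9%, 8.06% lower and 11.8% higher. In this bulk tissue fewer cells of a type and less RNA per cell cannot be told apart.

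**Figure D1:**
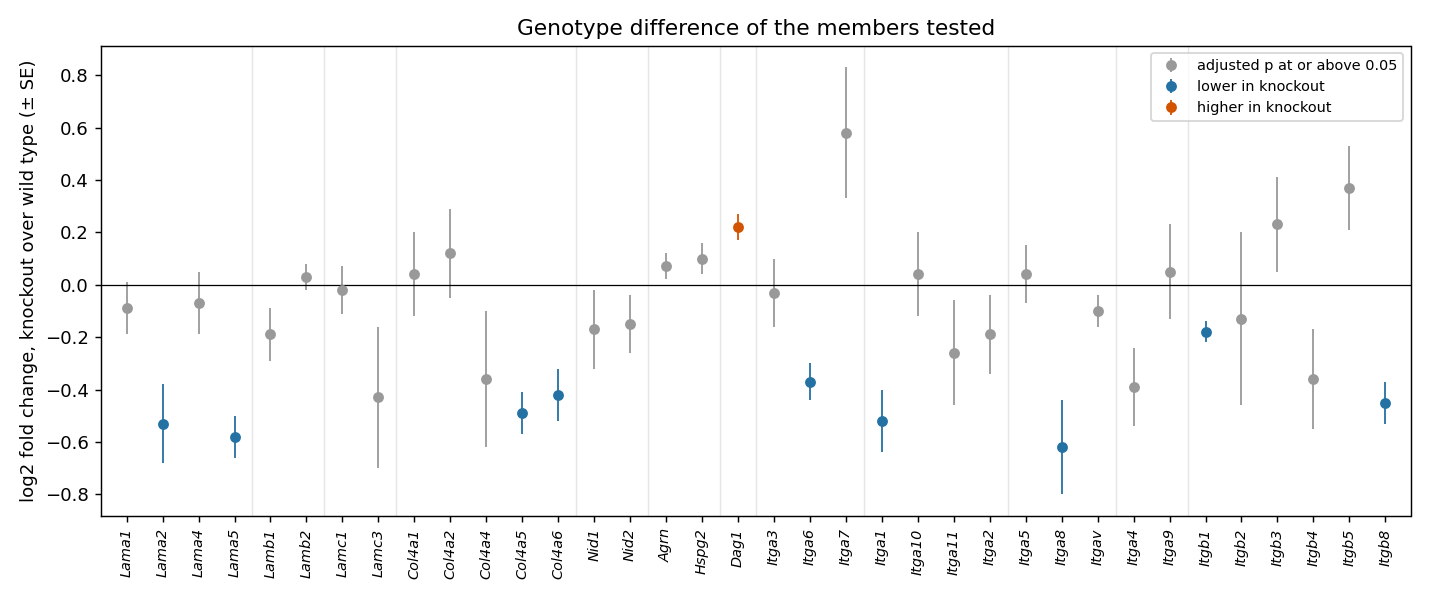
Log2 fold change of 36 of the 37 members tested, knockout over wild type, with its standard error; blue points passed as lower, the orange point as higher, and grey points did not pass. The 9 lower members lie between -0.62 (Itga8) and -0.18 (Itgb1), and Dag1 lies at 0.22.

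Levels of different genes were compared as CPM per kilobase of exon. On that scale Agrn was the most abundant member in wild type (90.8 ± 4.28, SD, n = 5), followed by Itgb1 (49.1 ± 0.940), Dag1 (29.5 ± 1.62), Col4a1 (28.1 ± 4.97) and Col4a2 (22.0 ± 4.23). Dag1 and Col4a1 did not differ beyond their spread, whereas the gaps above them exceeded it. Lamb2 (18.3) and Lamc1 (16.3) came next, then Nid1 (14.6) and Itga6 (14.4), which lay within each other's spread. At the other end Itgb6 had 2 reads in all 10 libraries together. It was left out of the test for low counts, as were Itgb7, Lama3, Lamb3 and Col4a3, whose highest library reached 24, 29, 16 and 21 reads.

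**Figure D2:**
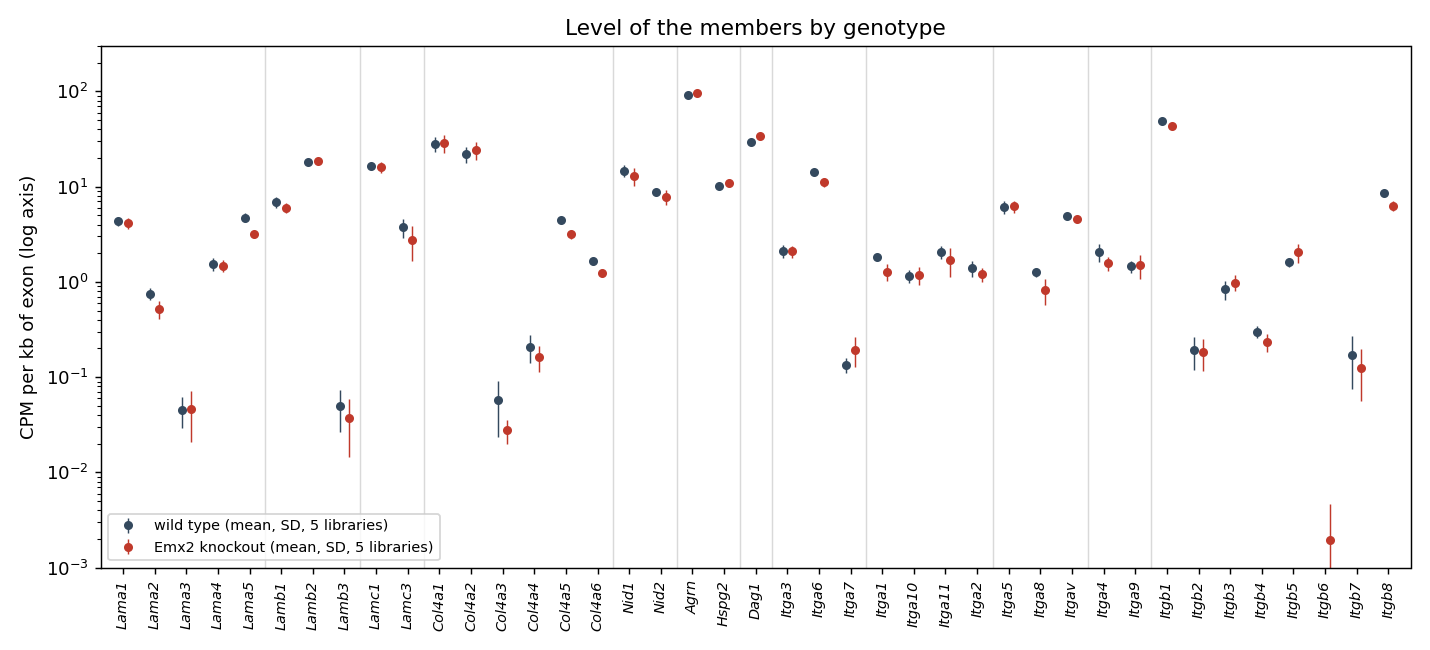
Level of 41 of the 42 members in CPM per kilobase of exon on a log axis, mean and SD of 5 libraries per genotype, grouped by role. Agrn is the highest in both genotypes (95.1 in knockout, 90.8 in wild type), and Itgb6, listed at 0 in all wild-type libraries, has a knockout point alone at the bottom, whose lower bar runs off the axis.

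Among the laminins, 2 of the 9 tested members fell, both alpha chains, and 7 did not pass. That share, 22.2%, was no higher than the 22.2% of all genes and 26.3% of protein-coding genes called. Lama5 encodes a laminin alpha chain found in epithelial, pial and vascular basement membranes. It was counted at 39.2, 34.5, 38.8, 32.5 and 35.9 CPM in knockout replicates 1 to 5 and at 57.6, 45.8, 55.1, 50.4 and 60.7 CPM in wild-type replicates 1 to 5. No knockout library reached the wild-type range. Lama5 thus fell 1.49-fold, a log2 fold change of -0.58 ± 0.08 with the smallest p of the set (edgeR adjusted p = 0.000327).

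Lama2 encodes the alpha chain of the laminin of muscle, nerve and vessel basement membranes. Its knockout libraries held 10.1, 7.40, 5.87, 9.86 and 9.27 CPM, and its wild-type libraries 10.2, 13.6, 11.8, 14.9 and 11.1 CPM. Knockout replicate 1 and wild-type replicate 1 almost touched. The log2 fold change of -0.53 ± 0.15 passed (edgeR adjusted p = 0.0265), but the call depended on single libraries. It was lost without knockout replicate 2 (-0.49, edgeR adjusted p = 0.0689), wild-type replicate 2 (-0.50, 0.0566) or wild-type replicate 4 (-0.45, 0.0774).

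Lama1, whose product is the main alpha chain of early embryonic and pial basement membranes, did not pass. It stood at 45, 37.4, 33.3, 45 and 38.0 CPM in knockout and at 49.3, 42.1, 38.1, 43.8 and 38.4 CPM in wild type, overlapping ranges with a log2 fold change of -0.09 ± 0.10 (edgeR adjusted p = 0.583). Lama4, the alpha chain typical of vessels, was also within the spread (-0.07 ± 0.12, 0.744). As shares of the summed laminin alpha signal per kilobase, Lama1 made 38.1% ± 2.66 in wild type and 44.0% ± 3.05 in knockout. Lama5 made 41.3% ± 4.32 in wild type and 34.2% ± 3.67 in knockout. The summed alpha signal itself was 11.5 ± 0.545 CPM per kilobase in wild type and 9.33 ± 0.811 in knockout.

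The laminin beta and gamma chains that complete these trimers did not pass. Lamc1, the gamma chain shared by most laminins, was counted at 160, 124, 114, 137 and 131 CPM in knockout and 151, 136, 130, 139 and 120 CPM in wild type. Its groups overlapped over most of their range (log2 fold change -0.02 ± 0.09, edgeR adjusted p = 0.927). The beta chain genes Lamb1 (-0.19 ± 0.10, 0.212) and Lamb2 (0.03 ± 0.05, 0.789) did not pass either. Lamc3 (-0.43 ± 0.27, 0.307) was among the most variable members, from 8.91 to 26.3 CPM in knockout.

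Type IV collagen genes lie in head-to-head pairs, Col4a1 with Col4a2 on chromosome 8, Col4a3 with Col4a4 on chromosome 1 and Col4a5 with Col4a6 on chromosome X. The products of the first pair build the collagen IV found in nearly all basement membranes, and Col4a5 and Col4a6 together build a trimer of more restricted distribution. The promoters of both pairs are printed because the members of each moved together between libraries or genotypes. RefSeq's windows for assembly GRCm38.p6 run from 250 bases before to 50 after each start, 5′ to 3′ on the gene's strand. They are chr8:11312777-11313076 (minus strand) for Col4a1 and chr8:11312555-11312854 (plus strand) for Col4a2, with starts 23 bases apart and 78 bases in common. For Col4a5 and Col4a6 they are chrX:141475169-141475468 (plus strand) and chrX:141474027-141474326 (minus strand), with starts 1341 bases apart and none in common. Capitals mark matches to GGGCGG, read on this strand or on the opposite one. They also mark matches to CCAAT, read in the same way.
Col4a1: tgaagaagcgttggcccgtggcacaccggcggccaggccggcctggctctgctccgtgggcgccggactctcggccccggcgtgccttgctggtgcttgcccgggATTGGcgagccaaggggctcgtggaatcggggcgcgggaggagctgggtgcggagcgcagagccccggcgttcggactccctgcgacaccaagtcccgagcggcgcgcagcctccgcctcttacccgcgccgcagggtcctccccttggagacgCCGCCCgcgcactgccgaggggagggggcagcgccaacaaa
Col4a2: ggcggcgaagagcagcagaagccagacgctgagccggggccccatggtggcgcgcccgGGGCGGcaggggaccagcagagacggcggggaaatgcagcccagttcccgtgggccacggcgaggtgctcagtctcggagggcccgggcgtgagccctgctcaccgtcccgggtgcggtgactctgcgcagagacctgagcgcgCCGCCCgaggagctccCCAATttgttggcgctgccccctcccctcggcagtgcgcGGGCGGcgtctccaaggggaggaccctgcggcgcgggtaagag
Col4a5: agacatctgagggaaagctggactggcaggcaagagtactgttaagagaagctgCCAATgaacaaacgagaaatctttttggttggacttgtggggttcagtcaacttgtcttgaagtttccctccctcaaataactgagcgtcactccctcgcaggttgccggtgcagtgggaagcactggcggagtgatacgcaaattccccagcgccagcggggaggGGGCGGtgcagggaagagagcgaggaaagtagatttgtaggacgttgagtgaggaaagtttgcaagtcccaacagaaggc
Col4a6: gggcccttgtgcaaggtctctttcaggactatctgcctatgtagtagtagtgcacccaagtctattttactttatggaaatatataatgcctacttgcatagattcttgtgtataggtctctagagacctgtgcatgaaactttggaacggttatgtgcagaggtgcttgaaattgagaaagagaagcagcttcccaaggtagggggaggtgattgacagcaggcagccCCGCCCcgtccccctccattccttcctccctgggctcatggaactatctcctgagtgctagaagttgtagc

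Of these windows, those of Col4a1 and Col4a2 were rich in G and C (74.0% and 73.7%) and held 37 and 33 CpG. Those of Col4a5 (52.7%, 11 CpG) and Col4a6 (48.3%, 3 CpG) lay near the median of all promoters, 52.7% and 7 CpG. RefSeq held windows for 29 of the 42 members. These members held 34 windows, since 5 genes have more than 1. GGGCGG was matched in 21 of the 34 (61.8%) and in 35.6% of all 32817 promoter windows of the same length. CCAAT was matched in 9 (26.5%) and in 37.4% of all windows. TATAAA was matched in 0 of the 34 and in 13.6% of all windows. TAATTA, a core recognised by many homeodomain factors, was matched in 0 and in 5.30% of all. All motifs were searched on both strands, and none of the 4 contains another. A missing match says only that these letters are not in this window.

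Col4a5 and Col4a6 fell while Col4a1, Col4a2 and Col4a4 did not pass. Col4a5 was counted at 19.7, 21.1, 19.8, 20.3 and 25.7 CPM in knockout and at 29.7, 29.9, 31.6, 27.2 and 30.8 CPM in wild type. The groups were apart, and knockout replicate 5 lay closest to wild type. Col4a5 fell by 0.49 ± 0.08 on the log2 scale (edgeR adjusted p = 0.000899). Col4a6 stood at 10.1, 9.74, 9.80, 8.55 and 11.4 CPM against 15.3, 12.6, 12.9, 13.6 and 11.8 CPM. The groups were again apart, by a narrow gap (-0.42 ± 0.10, edgeR adjusted p = 0.00837).

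Both genes are X-linked and the genotypes differed in their number of female-type libraries, so the values were also read by type. The female-type knockout library held 19.7 CPM of Col4a5 and the male-type ones 19.8 to 25.7. In wild type the female-type libraries held 27.2 to 29.9 CPM and the male-type ones 30.8 to 31.6. Within each type the knockout libraries were thus below the wild-type libraries. With type as a term in the fit, an alternative added after the data were seen, Col4a5 gave -0.54 (edgeR adjusted p = 0.00111) and Col4a6 -0.38 (edgeR adjusted p = 0.0297).

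Col4a1 was counted at 288, 186, 173, 234 and 199 CPM in knockout and at 241, 245, 204, 204 and 153 CPM in wild type. The spread within a genotype exceeded the difference between them (0.04 ± 0.16, edgeR adjusted p = 0.891). Col4a2 followed it library by library, at 214, 138, 127, 167 and 147 CPM in knockout and 173, 174, 136, 140 and 107 CPM in wild type (0.12 ± 0.17, edgeR adjusted p = 0.664). Per kilobase the ratio of Col4a2 to Col4a1 was 0.829 ± 0.0124 in knockout (0.808 to 0.838) and 0.784 ± 0.0221 in wild type (0.752 to 0.807), narrow ranges that did not overlap. That of Col4a6 to Col4a5 was 0.394 ± 0.0310 and 0.375 ± 0.0498, with overlap. Both ratios were chosen after the values were seen, so no p-value is given for them. Col4a5 made 8.07% ± 1.63 of the summed collagen IV signal per kilobase in wild type and 5.69% ± 1.25 in knockout, and Col4a6 2.98% ± 0.375 and 2.23% ± 0.470. Col4a4, whose product is known from the kidney filter, was low (-0.36 ± 0.26, edgeR adjusted p = 0.379). Its neighbour Col4a3 was rarer still, at 0.328, 0.297, 0.297, 0.327 and 0.138 CPM in knockout and 0.0833, 0.654, 0.582, 0.505 and 1.02 CPM in wild type. It had too few reads to be tested in all libraries, and of 6 other fits that held it 1 called it, the fit without wild-type replicate 1, its lowest library (-1.17, edgeR adjusted p = 0.0328). With no filter on low counts it gave -0.95 over all libraries (edgeR adjusted p = 0.241), and in the other 4 fits -1.32 to -0.77 (edgeR adjusted p = 0.197 to 0.239).

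The linkers of the sheet did not pass. Nid1 ranged from 67.0 to 117 CPM in knockout and from 80.4 to 119 CPM in wild type (-0.17 ± 0.15, edgeR adjusted p = 0.476). Nid2 gave -0.15 ± 0.11 (0.344). Its exons overlap those of Rtraf on the opposite strand, a gene with more reads, so with no strand setting stated its value is uncertain. Hspg2, encoding perlecan, stood at 156 ± 14.6 CPM in knockout and 145 ± 7.46 in wild type (0.10 ± 0.06, 0.285). Agrn, encoding agrin, stood at 883 ± 36.5 and 843 ± 39.8 CPM (0.07 ± 0.05, 0.339). These 2 proteoglycan genes had among the smallest standard errors of the set.

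Dag1, encoding both subunits of the laminin and agrin receptor dystroglycan, was the member that rose. It was counted at 243, 211, 214, 218 and 201 CPM in knockout and at 204, 190, 185, 179 and 179 CPM in wild type. The groups overlapped slightly, since wild-type replicate 1 lay above knockout replicate 5. This was a 1.16-fold increase, 0.22 ± 0.05 on the log2 scale (edgeR adjusted p = 0.0122).

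Of the 3 alpha subunits grouped here as laminin-binding, Itga6 fell, and Itga3 and Itga7 did not pass. Itga6 was counted at 119, 99.5, 93.8, 92.8 and 95.5 CPM in knockout and at 128, 133, 133, 123 and 131 CPM in wild type. Knockout replicate 1 stood above the other knockout libraries and still below all wild-type libraries. The log2 fold change was -0.37 ± 0.07 (edgeR adjusted p = 0.00150), and -0.45 without that library. Itga3 was level (-0.03 ± 0.13, 0.912). Itga7, at 1.58 ± 0.532 CPM in knockout and 1.10 ± 0.188 in wild type, gave 0.58 ± 0.25 (0.131).

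Itga1, a collagen-binding subunit, was counted at 27.0, 19.0, 18.6, 28.5 and 25.9 CPM in knockout and at 34.6, 31.4, 34.5, 33.9 and 36.9 CPM in wild type. The groups were apart, with a wider spread in the knockout (-0.52 ± 0.12, edgeR adjusted p = 0.00755). The other collagen-binding subunits, Itga2 (-0.19, edgeR adjusted p = 0.409), Itga10 (0.04, 0.913) and Itga11 (-0.26, 0.396), did not pass. Exons of Itga10 share 33.5% of their bases with a predicted gene on the same strand, so its counts may not hold all of its reads. Exons of the called members Itga1, Itga8 and Lama2 overlap other genes over 3.68%, 5.05% and 3.86% of their bases, but those genes held 28, 61 and 0 reads in all.

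Among subunits that recognise the RGD sequence of matrix proteins, Itga8 fell and Itga5 and Itgav did not pass. Itga8 was counted at 6.76, 5.06, 3.93, 5.65 and 8.72 CPM in knockout and at 8.16, 10.7, 8.67, 8.79 and 10.2 CPM in wild type. Knockout replicate 5 lay within the wild-type range. Itga8 passed with a log2 fold change of -0.62 ± 0.18 (edgeR adjusted p = 0.0264). The call was lost without knockout replicate 2 (-0.56, edgeR adjusted p = 0.0691), knockout replicate 4 (-0.60, 0.0597), wild-type replicate 2 (-0.57, 0.0601) or wild-type replicate 5 (-0.59, 0.0594). With Xist type as a term neither Itga8 (-0.59, edgeR adjusted p = 0.0604) nor Lama2 (-0.44, 0.0771) passed.

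Itga5, the fibronectin receptor subunit, gave 0.04 ± 0.11 (edgeR adjusted p = 0.846), and Itgav, which pairs with several beta subunits, -0.10 ± 0.06 (0.238). Itga4, a receptor subunit for fibronectin and the vascular adhesion protein Vcam1, did not pass in edgeR (-0.39 ± 0.15, 0.0901) and passed in DESeq2 (-0.40, DESeq2 adjusted p = 0.0414). Itga9 was level (0.05 ± 0.18, 0.899).

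Itgb1 and Itgb8 were the beta subunits that fell. Itgb1, the partner of most alpha subunits in the set, was counted at 184, 166, 167, 182 and 182 CPM in knockout and at 205, 203, 195, 200 and 199 CPM in wild type. The wild-type libraries were tightly spaced and all above the knockout libraries. The change was the smallest of the called members, -0.18 ± 0.04 (edgeR adjusted p = 0.00557). Itgb1 made 80.8% ± 0.652 of the summed beta signal per kilobase in wild type and 81.3% ± 1.03 in knockout. That sum itself was 60.8 ± 1.24 and 53.1 ± 2.41 CPM per kilobase.

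Itgb8 pairs with Itgav in a receptor that activates latent TGF-beta and is needed for vessel development in the brain. It was counted at 62.6, 64.5, 85.4, 68.4 and 68.2 CPM in knockout and at 100, 87.7, 87.4, 102 and 97.8 CPM in wild type. Knockout replicate 3 stood apart from the other knockout libraries and just under the lowest wild-type library. Itgb8 gave a log2 fold change of -0.45 ± 0.08 (edgeR adjusted p = 0.00206). Itgb5 (0.37 ± 0.16, edgeR adjusted p = 0.118) did not pass, but did without knockout replicate 3 (0.47, 0.0388) and in the large libraries alone (0.64, 0.0481). Itgb3 (0.23, 0.427), Itgb4 (-0.36, 0.213) and Itgb2 (-0.13, 0.845), the leukocyte subunit, did not pass.

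**Figure D3:**
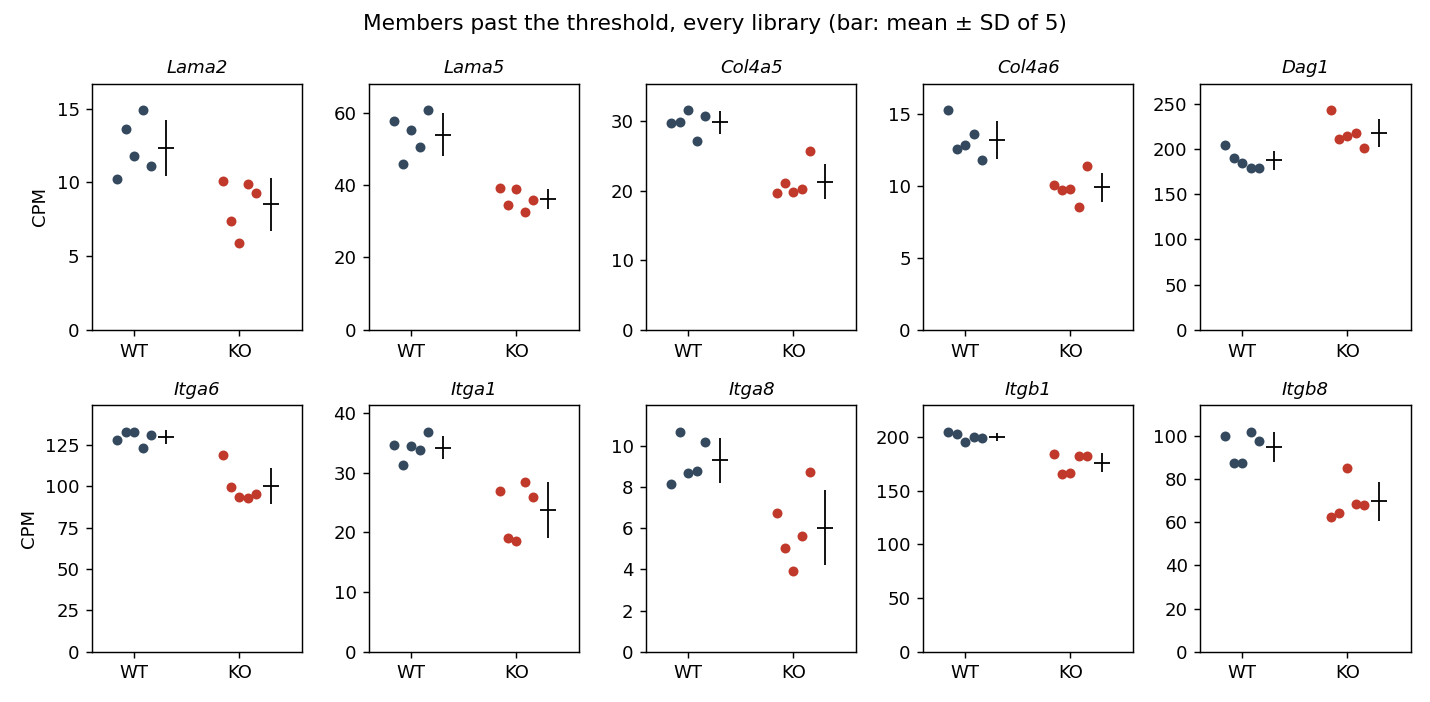
CPM of the 10 members that passed, 1 point per library, with the mean and SD of each genotype beside the points; the axes start at 0. In 8 panels the knockout points all lie below the wild-type points, and in those of Itga8 and Dag1 the groups overlap.

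Relative levels of members that assemble together, or that take the same place in a trimer, are given per kilobase. Lama5 was 0.293 ± 0.0482 of Lamc1 in wild type and 0.199 ± 0.0290 in knockout, and 1.09 ± 0.182 of Lama1 in wild type and 0.785 ± 0.135 in knockout. Itgb8 was 1.76 ± 0.130 of Itgav in wild type and 1.39 ± 0.192 in knockout. Itga6 was 0.293 ± 0.0127 of Itgb1 in wild type and 0.257 ± 0.0260 in knockout. The ranges of the 2 genotypes overlapped in each of these 4 ratios. They were chosen after the members' values were seen, so no p-value is given for them.

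In a subset of 1 size class the genotypes come from different title codes, and in a subset of 1 code from different size classes, so neither can be told apart from genotype there. The 10 called members kept their direction in the large libraries, in the small libraries and in title codes 241022 and 14922 fitted alone. Lama5 gave -0.58 in the large libraries and -0.55 in the small ones, and Itga8 -0.58 and -0.61. Itgb8 gave -0.54 and -0.31, Itga6 -0.30 and -0.47, and Dag1 0.30 and 0.12. In the large libraries 7 members passed, Lama5, Col4a5, Col4a6, Itga8 and Itgb8 as lower and Dag1 and Itgb5 as higher. Fewer passed in the other subsets, Itgb8 in code 241022, Itga6 and Lama5 in code 14922, and Itga6 in the small libraries. The shares of all genes called in these subsets are not given here. No member passed the test of a different genotype effect between the 2 codes, 0 of 39 by edgeR (1 at an unadjusted p under 0.05, smallest adjusted p 0.751), against 1.53% of all genes. That test used 8 libraries and was run in edgeR alone. In code 241022 the knockout libraries were the large ones, and in code 14922 the wild-type libraries were. A genotype effect that differed between these codes could therefore not be told apart from an effect of size class.

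**Figure D4:**
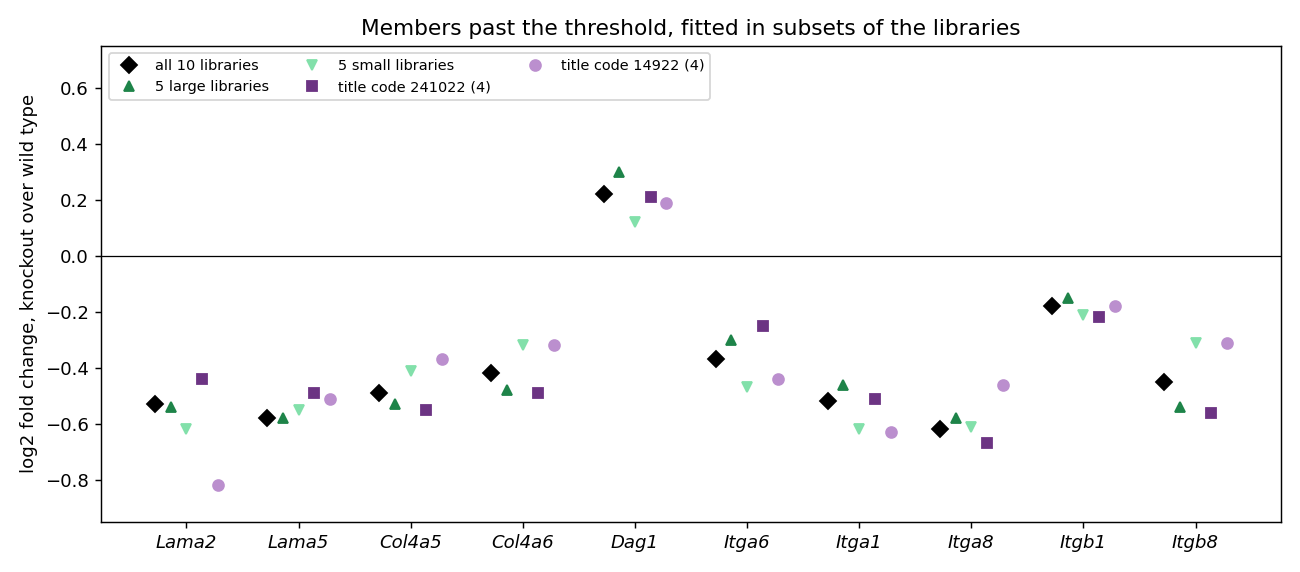
Log2 fold change, knockout over wild type, of the 10 called members in all libraries and in 4 subsets. Each member lies on the same side of 0 in every fit, with Lama2 ranging most widely, from -0.82 in title code 14922 to -0.44 in title code 241022.

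Many members rose and fell together from library to library within a genotype. Knockout replicate 1 was the highest knockout library for 22 of the 37 members tested, and knockout replicate 3 the lowest for 20. In wild type, replicate 1 was the highest for 14 and replicate 5 the lowest for 17. The summed level of 15 endothelial markers had the same extremes, 442 CPM in knockout replicate 1, 248 in knockout replicate 3, 408 in wild-type replicate 1 and 299 in wild-type replicate 5. So did the sum of pericyte markers, at 277, 226, 274 and 237 CPM in the same order. Markers of meninges and mesenchyme did as well, at 1040, 764, 1050 and 764 CPM, so the pattern was not particular to endothelium. The same ranking over all genes tested is not given here, so the pattern cannot be called particular to the set. Col4a1 and Nid1 were high and low in these same libraries or near them, whereas Lama5 and Col4a5 were apart by genotype in all 10 libraries. Some other called members did vary with the endothelial sum within the knockout. Lama2 was lowest in knockout replicate 3 (5.87 CPM) and highest in knockout replicate 1 (10.1). Itga1 was also lowest in knockout replicate 3 (18.6) and highest in knockout replicate 4 (28.5). In wild type this was not so, with Lama2 lowest in replicate 1 (10.2) and Itga1 highest in replicate 5 (36.9). Leaving out knockout replicate 1 gave -0.09 for Col4a1 and -0.30 for Nid1.

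**Figure D5:**
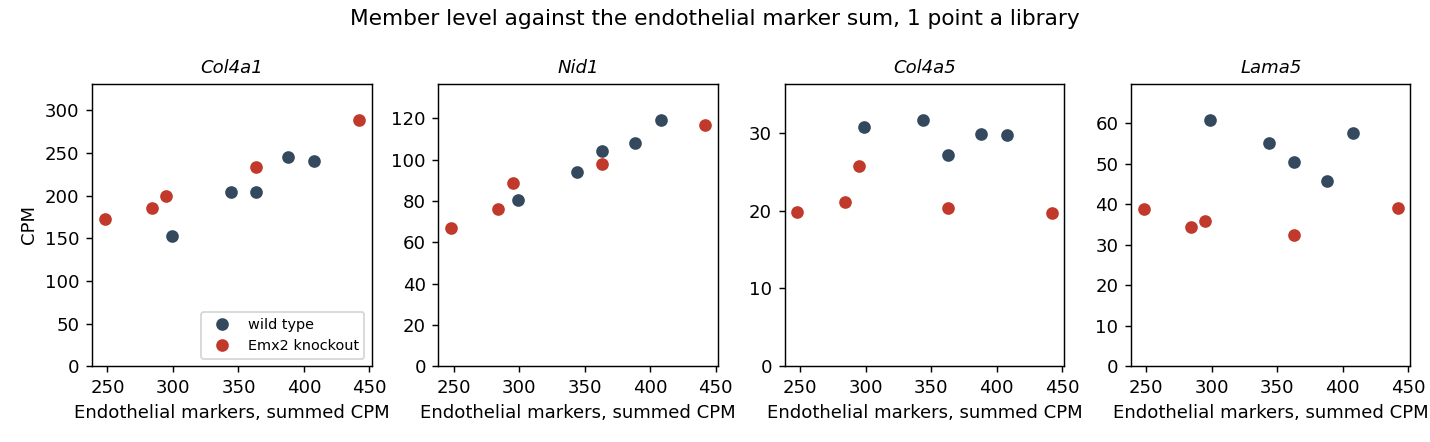
CPM of Col4a1, Nid1, Col4a5 and Lama5 against the summed CPM of 15 endothelial markers, 1 point per library, red for knockout and dark blue for wild type. Col4a1 and Nid1 increase along the axis in both genotypes, while the knockout points of Col4a5 and Lama5 lie below the wild-type points throughout. The other called members are not drawn.

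Marker levels of the cell types that make basement membranes are given beside the members because bulk cortex holds all of them. The endothelial sum was 326 ± 77.0 CPM in knockout (248 to 442) and 360 ± 42.2 in wild type (299 to 408), led by Kdr (exact permutation test, two-sided, p = 0.405). None of its 15 genes passed in edgeR, DESeq2 or limma-voom (0 in each, 4 at an unadjusted edgeR p under 0.05). Of the 15, 12 had log2 fold changes below 0 and 3 above (median -0.14). Pericyte markers, led by Notch3, summed to 248 (226 to 277) and 254 CPM (237 to 274), with 1 of 8 lower, Rgs5 (exact permutation p = 0.556). Notch3 made most of that sum, at 159 CPM in knockout and 146 in wild type, while 6 of the 8 tested genes had log2 fold changes below 0 (median -0.20). Markers of meninges and mesenchyme, led by Col3a1, summed to 892 (764 to 1040) and 924 CPM (764 to 1050), with 3 of 15 lower, Dcn, Aldh1a2 and Pdgfra (exact permutation p = 0.690). In that list 10 genes had log2 fold changes below 0 and 5 above (median -0.08). No gene of these 3 lists was at 0 reads in all libraries. The part of these cells in the members' differences was not tested.

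Choroid plexus and radial glia marker sums separated by genotype without overlap. Choroid plexus markers summed to 78.2 CPM in knockout (59.0 to 94.4) and 293 CPM in wild type (260 to 313), with 9 of 10 tested genes lower (exact permutation p = 0.00794, the smallest it can give, adjusted over 10 lists 0.0397). The highest of them in wild type was Ttr, at 116 ± 17.9 CPM against 2.55 ± 1.41 in knockout. The highest in knockout was Otx2, which did not pass (59.3 ± 14.9 and 61.4 ± 16.2 CPM). Radial glia markers, led by Nes, summed to 4070 (3840 to 4250) and 3280 CPM (3240 to 3340), with 9 of 11 higher (exact permutation p = 0.00794, adjusted 0.0397). Neuron markers, led by Dcx in knockout and Map2 in wild type, summed to 5140 (4520 to 5740) and 3910 CPM (3080 to 4710), with 5 of 9 higher (exact permutation p = 0.0159, adjusted 0.0530). Microglia markers, led by Cx3cr1, summed to 66.5 (59.1 to 88.1) and 81.1 CPM (70.4 to 95.6), with 1 of 13 passing as lower, Mrc1 (exact permutation p = 0.0714). All 13 had log2 fold changes below 0 (median -0.24). Surface epithelium, led by Epcam in knockout and Krt18 in wild type, stood at 6.30 (3.18 to 9.07) and 8.40 CPM (7.07 to 11.7), with 1 of 4 tested genes lower, Krt18, and Krt5 at 0 reads (exact permutation p = 0.159). Megakaryocyte markers, led by Itga2b, summed to 17.4 (15.3 to 23.2) and 16.8 CPM (13.8 to 21.1, exact permutation p = 0.698). Erythroid markers, led by Hbb-y, summed to 4560 (2420 to 7730) and 3860 CPM (2340 to 5720, exact permutation p = 0.540). All 10 erythroid genes had log2 fold changes above 0 (median 0.36), and 0 passed. The part of these cells in the members' differences was not tested.

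Genes that act with the set were read from 8 lists, chosen with earlier results of these data known. Of 135 genes tested once each, 16 were higher and 25 lower in the knockout, 30.4% in all against 22.2% of all genes and 26.3% of protein-coding genes, with a median of -0.07. Among 23 other basement membrane and associated matrix genes 3 rose and 6 fell, with a median of -0.19. Npnt, encoding nephronectin, a ligand of the integrin that contains Itga8, fell from 17.9 ± 1.99 to 10.1 ± 1.45 CPM (-0.82 ± 0.11, edgeR adjusted p = 0.000261). Frem1, whose product belongs to the Fraser complex of epithelial basement membranes, fell as well (-0.67 ± 0.13, 0.00320), as did the related Frem2 and Fras1, named after their values were seen (-0.69 and -0.27). Hmcn1, encoding hemicentin, gave -0.55 ± 0.10 (edgeR adjusted p = 0.00183). Ntn4, a laminin-related netrin gene, rose from 20.3 ± 2.93 to 35.1 ± 0.932 CPM (0.78 ± 0.09, edgeR adjusted p = 8.56e-05), and Smoc1 (0.90) and Megf6 (0.27) rose.

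Genes that modify, anchor or degrade the sheet moved in both directions. Of 17 genes for collagen IV folding and crosslinking 2 fell, the lysyl hydroxylase gene Plod2 (-0.49) and the lysyl oxidase-like gene Loxl1 (-0.48), and 0 rose in edgeR. In either direction 4 of the 17 had an unadjusted p under 0.05, and DESeq2 called 4 and limma-voom 3. Of 17 genes that glycosylate dystroglycan 2 rose and 1, B3galnt2 (-0.16), fell. In the dystrophin-glycoprotein complex 1 of 11 passed, Dmd. This dystrophin gene fell from 59.1 ± 4.01 to 30.8 ± 4.25 CPM (-0.95 ± 0.09, edgeR adjusted p = 2.37e-05). Among 15 matrix proteases and inhibitors 2 rose, Mmp15 (0.31) and Mmp17 (0.32), and 4 fell, including Adamts1 (-0.84), Timp3 (-0.68) and Mmp16 (-0.48).

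Among 28 integrin adaptor and focal adhesion genes 7 rose and 3 fell, with a median of 0.05. The kinase gene Src rose from 109 ± 4.12 to 143 ± 7.80 CPM (0.40 ± 0.04, edgeR adjusted p = 8.74e-05), with the scaffold genes Bcar1 (0.34) and Zyx (0.44). Nedd9, a relative of Bcar1, fell from 98.5 ± 9.01 to 63.4 ± 3.14 CPM (-0.63 ± 0.06, edgeR adjusted p = 3.27e-05), and Lims1 (-0.19) and Tns1 (-0.29) fell too. Of 13 genes of TGF-beta latency 4 fell and 0 rose in edgeR, and 4 were called in DESeq2, in limma-voom and at an unadjusted p under 0.05. Ltbp1, whose product holds latent TGF-beta in the matrix, fell from 13.0 ± 4.01 to 5.24 ± 0.749 CPM (-1.32 ± 0.20, edgeR adjusted p = 0.000606), Ltbp3 by 0.86 and Ltbp4 by 0.30 on the log2 scale. Of 12 genes grouped here as receptors and regulators of pial adhesion, not all of which act in adhesion itself, Adgrg1 (0.26) and Marcks (0.20) rose. Adgrg1 is the receptor gene linked to cobblestone-like cortical malformation. In the same list 4 fell, including Dab1 (-0.31), Reln (-0.85) and Rock1 (-0.16).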

How the data were processed

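RNA was isolated from cortex with a column kit and sequenced by standard Illumina protocols, per the labels' protocols. The authors deposited raw counts per Ensembl gene, whole numbers that are not normalized. Per the submitters' processing notes featureCounts 1.6.3-p1, STAR 2.7.8a and bcl2fastq 2.20 were used, and GRCm39 is listed as a build beside the rat build rn6. Strand setting, parameters and annotation release are not given in the sources used here. Symbols matched 52073 of 56748 identifiers, which held 98.4% to 99.4% of the counts. Biotypes and exon lengths were taken by gene identifier from GENCODE's GRCm38 annotation, and promoter windows from RefSeq.

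The filter on low counts was filterByExpr with a minimum of 10, leaving 18163 genes, and totals were TMM-scaled. Genotypes were compared with edgeR 4.0.16's quasi-likelihood F test (robust, R 4.3.3), two-sided, with genotype as the only term and Benjamini-Hochberg adjustment over all genes tested. Standard errors were derived from the F statistic, and values are mean ± SD with n = 5. Marker sums were compared by an exact permutation test over libraries, adjusted over 10 lists. The procedure was tested on simulated counts. As alternatives, scaling and filter were varied, DESeq2 1.42.0 and limma-voom (limma 3.58.1) were run, as were subsets and terms of the libraries, stricter thresholds and each library left out.

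The members, their roles, the 8 accompanying lists and the marker lists were chosen with earlier results of these data known. Values were printed for the members and for up to 3 genes per direction of each accompanying list with the smallest p among those that passed, and for the highest gene of each marker list in either genotype. Other genes in the text were named after their values were seen. The values of 1 member and 2 other genes that this rule names are not reported here.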

Additional observations from a re-analysis of the deposited data

Results flagged for a closer look

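Within a genotype, 74 groups of 5 libraries (37 members, 2 genotypes) were searched for a library set apart, taking its distance to the nearest library over the range of all 5 (critical value 0.71). Chance gives about 1 flag in 20 groups, and 3 were found, all in the knockout. Col4a5 was high in knockout replicate 5 (ratio 0.764, 25.7 CPM against 21.1 in the next library). Itga6 was high in knockout replicate 1 (ratio 0.747, 119 CPM against 99.5). Itgb8 was high in knockout replicate 3 (ratio 0.746, 85.4 CPM against 68.4). In each case the library lay toward the wild-type values, and the 3 genes passed as lower with and without it.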

How the results depend on the processing

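Over 880 refits of the 37 members tested, 837 stayed on the same side of the threshold, 39 lost a call, 4 gained one and 0 reversed a call. All 10 called members passed under RLE, upper-quartile and total-count scaling, without a filter on low counts, with a minimum mean of 1 CPM, in DESeq2 and in limma-voom. With the title code as a replicate block 10 members were called as well. Libraries of different genotype that share a code did not deviate together (mean residual correlation -0.1, from -0.3 to 0.09). Those libraries were also of opposite size class, so these correlations cannot tell whether the codes mark a pairing. Leaving out each library in turn gave 8 to 11 called members, 7 to 10 lower and 1 to 2 higher, the second higher one without knockout replicate 3 being Itgb5 and the added lower one without wild-type replicate 1 Col4a3, and 8 of the 10 passed in every such fit, the exceptions being Lama2 and Itga8. Xist type as a term, chosen after seeing the data, left 8. Subsets of the libraries gave fewer calls. Title code 241022 gave 1 member (1 lower, 0 higher) and title code 14922 gave 2 (2 lower, 0 higher). The small libraries gave 1 (1 lower, 0 higher), and the large ones, equal in number, 5 lower and 2 higher. The shares of all genes called in these subsets are not given here. These counts therefore do not tell a loss of power from a smaller difference. An adjusted p under 0.01 left 7 lower and 0 higher, a change of at least 1.5-fold left Itga8 alone (1 in all, 1 lower, 0 higher), and limma-voom called 2 higher. The accompanying genes called were 41 in all libraries, 6 in title code 241022, 22 in title code 14922 and 11 in the small libraries. The members' median log2 fold change lay between -0.24 (small libraries) and -0.02 (Xist type as a term) in all settings. Scaling moved the balance of all genes called, from 2345 higher and 1694 lower with TMM (58.1% higher) to 1899 and 2245 with upper-quartile scaling (45.8%) and 1786 and 2464 with total counts alone (42%), while the members stayed at 1 higher and 9 lower. Before adjustment over the 10 marker lists, the difference in the microglial sum, -14.6 CPM in the main comparison, had an unadjusted p under 0.05 with total counts alone (-17.0 CPM, exact permutation p = 0.0397), without knockout replicate 1 (-20.0 CPM, 0.0159) and without wild-type replicate 3 (-17.3 CPM, 0.0397), and that of surface epithelium, -2.11 CPM, without knockout replicate 2 (-2.80 CPM, 0.0159). Depth limits the rare members most: Itga7, Itgb2, Itgb4 and Col4a4 held 287, 132, 414 and 414 reads over all libraries.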
